A study of Mus musculus with 7 samples.

Results

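The transcription factor p53 (gene Trp53) and 9 genes known as its direct targets were examined in mouse ovarian granulosa cells, the somatic cells that surround and nourish the oocyte. The 10 genes were chosen by symbol: Trp53, Mdm2, Ccng1, Sesn1, Sesn2, Trp53inp1, Zmat3, Phlda3, Gdf15 and Btg2. Each matched 1 of the 55228 rows of the count table, and all 10 were among the 15798 genes tested. The libraries came from primary granulosa cells of C57BL/6J mice, all untreated: 4 from wild-type (WT) mice and 3 from mice with the genotype Fhl2 KO. Fhl2 encodes an adaptor made of LIM domains, which partners with transcription factors and with the cytoskeleton. The labels give neither the kind of Fhl2 allele, nor the age of the mice, nor whether animals were pooled or libraries came from separate animals. The p-values therefore measure the spread between these libraries, which may in part be technical.

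As background, p53 is held at a low level by MDM2, a ubiquitin ligase that marks it for destruction and is itself a p53 target, so the pair forms a negative feedback loop. DNA damage and other stresses stabilise the p53 protein, which then binds DNA and switches on genes of cell cycle arrest, repair, metabolism and apoptosis. This control acts largely on the protein, which a read count does not measure. Target genes are therefore commonly used as a readout of p53 activity, and several of them also answer to other factors, such as ATF4 for Sesn2 and Gdf15. In the ovary p53 and its relatives are known for the surveillance of oocyte DNA and for follicle atresia, the loss of follicles through granulosa cell apoptosis.

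Total counts ran from 38855596 to 50514556 per library. Levels are in CPM, counts relative to the library's total after scaling with edgeR's TMM factors. Fhl2 itself stood at 101.0 to 114.2 CPM in the WT libraries and at 47.9, 66.8 and 60.4 CPM in KO libraries 1 to 3, so its reads were reduced but present under the KO label. KO library 1 lay between the other libraries. On the first principal component, which held 41.8% of the variance, its score was 10.6. KO libraries 2 and 3 scored 47.1 and 38.2, and the WT libraries scored between -27.1 and -18.6. Counts also depended on summed exon length to a different degree in each library. The slope of log2 CPM on log2 length, against the mean library, was 0.0463 to 0.0722 in WT. It was -7.21e-04 in KO library 1, -0.140 in the second and -0.109 in the third. Values called corrected below have each library's trend with length and GC content removed.

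The summed level of 12 granulosa markers was 4997 to 5670 CPM in WT and 4384 to 5242 CPM in KO, but single markers differed in opposite directions. Of 11 tested with edgeR, 3 rose (Inha, Kitl and Fshr), 6 fell (Inhba, Inhbb, Foxl2, Amh, Fst and Nr5a2) and 2 did not pass. For Inha the WT level was 1042 ± 53.5 CPM (SD, n = 4) and the KO level 1699 ± 120.6 (SD, n = 3), and for Inhba these were 3096 ± 335.1 and 2027 ± 587.8. Aromatase (Cyp19a1) had 0 counts in every WT library and 0.233 CPM on average in KO. Markers of other cells differed between the groups. The sum of 7 stroma markers was 364.5 to 422.2 CPM in WT and 117.9 to 163.6 in KO, and that of 7 smooth muscle and pericyte markers, with Rgs5 at 0 in all libraries, was 881.7 to 975.7 and 465.8 to 543.9. Acta2 carried the latter sum (882.1 ± 38.1 CPM in WT and 490.7 ± 40.4 in KO). Myh11, Cnn1 and Cspg4 also fell, while Tagln and Des did not pass (edgeR adjusted p = 0.0565 and 0.938). The stroma sum was carried by Col3a1 (220.7 ± 8.38 CPM in WT and 78.2 ± 14.9 in KO), Col1a2 (91.8 ± 11.4 and 27.9 ± 6.62) and Col1a1 (72.7 ± 7.87 and 24.5 ± 2.91). Of the stroma markers at lower levels, Pdgfra and Tcf21 fell, while Dcn and Lum did not pass (edgeR adjusted p = 0.421 and 0.0762). The sum of 7 surface epithelium markers was 109.0 to 125.3 CPM in WT and 138.3 to 180.8 in KO, carried by Krt8 and Krt18. Among the markers at lower levels, Krt7 rose 5.32-fold, Krt19 3.16-fold and Msln 2.71-fold (edgeR adjusted p = 6.92e-06, 2.58e-04 and 0.0310). Krt18 rose 1.54-fold (0.00118), and Krt8 (0.0639) and Upk3b (0.0554) did not pass. The sum of 5 lung markers was 0.0214 to 0.207 CPM in WT and 0.878 to 22.6 in KO. The sum of 6 theca markers, 6379 to 6989 and 8305 to 8788, was carried by Aldh1a1 (6411 ± 266.0 and 7951 ± 242.7 CPM) and Fdx1 (311.8 ± 9.30 and 568.5 ± 44.2). The defining theca markers Cyp17a1 and Insl3 had at most 3 counts in any library, Ptch1 fell (log2 fold change -0.54, edgeR adjusted p = 8.96e-04) and Gli1 did not pass (0.860). Sums of 9 leukocyte markers (21.5 to 22.6 and 20.3 to 25.8, with Cd3e at 0), of 7 endothelial markers (1.69 to 2.57 and 1.69 to 2.56), of 7 oocyte markers (2.93 to 8.31 and 5.07 to 10.3) and of 5 erythrocyte markers (0.103 to 0.342 and 0.307 to 0.597) overlapped between the groups. The part of these cells in the results below was not tested. In bulk RNA, fewer cells of a type and less RNA per cell cannot be told apart.

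p53 binds DNA as a tetramer, and its response element is made of a pair of 10-base units. RefSeq promoter windows (GRCm38.p6, 250 bases before to 50 bases after a start) were found for 8 of the 10 genes, 10 windows in all. They were searched for the 10-base p53 consensus, which reads the same on both strands. A full element, the pair of units joined directly with at most 2 mismatches outside the central bases, was found in 0 of these 10 windows and in 0.135% of 14031 windows of tested genes. A single unit with no mismatch was found in 4 windows, of Trp53, Mdm2, Ccng1 and the downstream start of Sesn1, and in 6.96% of all windows. The ATF4 composite element TGATGNAA, searched on both strands, was in 0 of the 10 windows and in 2.17% of all windows. The 4 units are shown as the letters found, 5′ to 3′ on the strand of the gene; a match is a description and not evidence of binding.
Trp53 unit, chr11:69580284-69580293: GGACTTGCCC
Mdm2 unit, chr10:117710935-117710944: GAACTTGCCT
Ccng1 unit, chr11:40755462-40755471: GGGCAAGCCT
Sesn1 unit, chr10:41887266-41887275: AAGCTTGTTT

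Mdm2 and Ccng1 are shown with the 250 bases upstream of their start because both hold a unit at nearly the same distance (-186 and -185 bases for its first base) and their counts differed between the groups in opposite directions. Capitals mark the 10-base unit. The p53-responsive promoter of Mdm2 is known to lie in the first intron of the gene, downstream of the bases shown.
Mdm2, minus strand, chr10:117710759-117711008: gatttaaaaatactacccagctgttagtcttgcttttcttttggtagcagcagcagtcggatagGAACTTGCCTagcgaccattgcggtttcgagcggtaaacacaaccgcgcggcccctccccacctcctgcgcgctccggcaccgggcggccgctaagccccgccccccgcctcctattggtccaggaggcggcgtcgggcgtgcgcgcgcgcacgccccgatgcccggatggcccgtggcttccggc
Ccng1, minus strand, chr11:40755287-40755536: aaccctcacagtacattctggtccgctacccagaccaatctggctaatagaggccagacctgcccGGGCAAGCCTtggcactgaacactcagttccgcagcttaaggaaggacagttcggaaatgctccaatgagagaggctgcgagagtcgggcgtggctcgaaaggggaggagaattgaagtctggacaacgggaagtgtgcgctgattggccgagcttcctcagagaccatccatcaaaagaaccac

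The first comparison was of levels between the genes, per kilobase of summed exons (GENCODE M21, the same build), within WT. Btg2, an antiproliferative cofactor of mRNA deadenylation and an immediate early gene, was the highest, at 168.1 ± 28.9 CPM per kilobase (SD, n = 4), above 98.1% of the 15574 tested genes with a length. Trp53 followed at 46.9 ± 1.92, above 92.6% of these genes. Mdm2 stood at 26.9 ± 2.10, Ccng1 at 21.6 ± 1.35 and Trp53inp1 at 15.9 ± 0.972 CPM per kilobase. Sesn2 (13.3 ± 0.636), Zmat3 (11.8 ± 0.941) and Phlda3 (8.94 ± 0.909) came next. Sesn1 was at 4.32 ± 0.352, and Gdf15, a secreted stress cytokine, was the lowest at 1.02 ± 0.190 CPM per kilobase, above 28.9% of genes. The libraries of neighbours in this order did not overlap, except those of Sesn2 (12.4 to 13.8) and Zmat3 (10.7 to 12.8), whose order turned when the longest transcript was used as the length (13.3 and 17.3). In KO the order of the means was the same except for Ccng1 (26.7 ± 5.05, SD, n = 3) and Mdm2 (21.4 ± 3.68), whose libraries overlapped there. The KO libraries of Mdm2 and Trp53inp1 overlapped too, as did those of Zmat3 and Phlda3. In KO libraries 2 and 3 Trp53inp1 was above Mdm2 and Phlda3 above Zmat3, while KO library 1 kept the order of the means for both pairs.

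**Figure D1:**
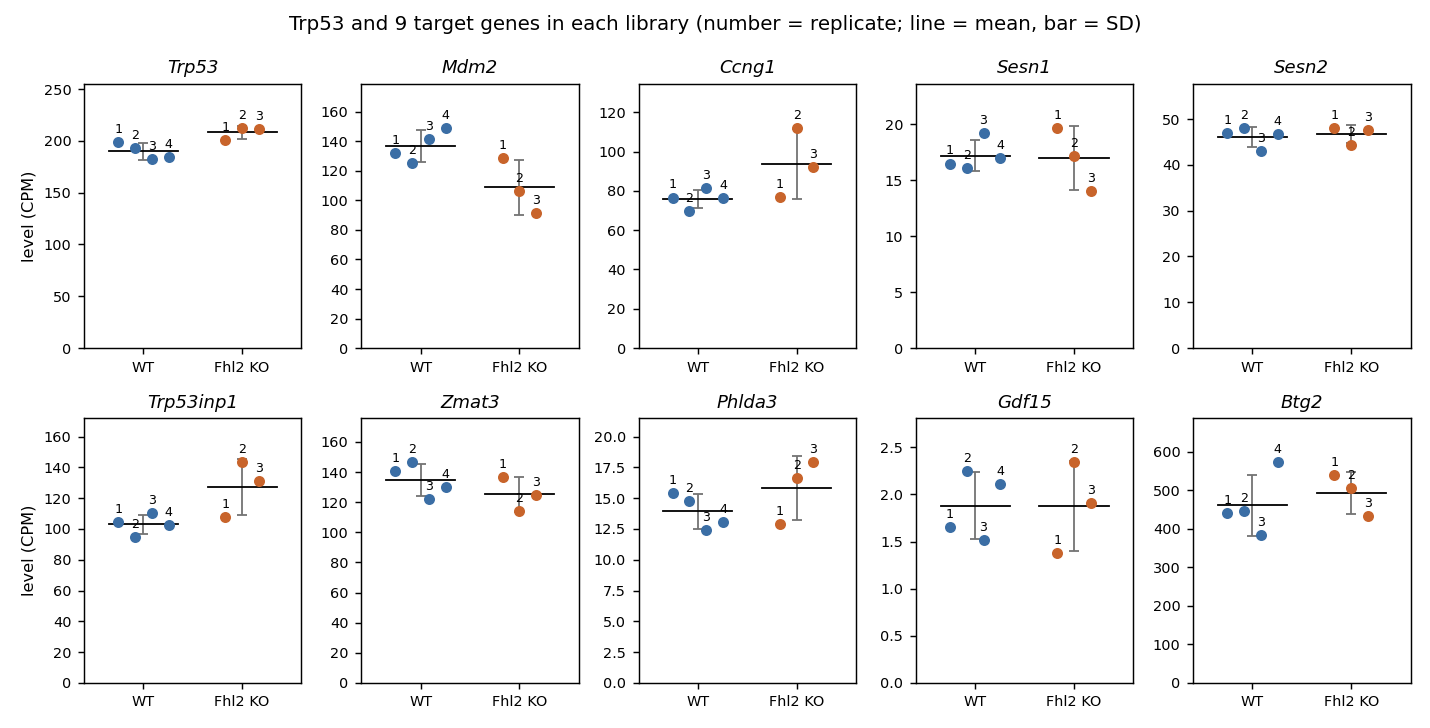
Level of each of the 10 genes (CPM, linear axes from 0) in the 4 WT and 3 Fhl2 KO libraries; points are libraries marked with their replicate number, lines are group means and bars SD. Trp53 is the gene whose groups do not overlap, and KO libraries 2 and 3 lie outside the WT points for Mdm2, Ccng1, Trp53inp1 and Phlda3.

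The main comparison asked whether the p53 pathway differs between granulosa cells of WT and Fhl2 KO mice. Mdm2 fell to a fitted 0.796 of its WT level, and Ccng1 and Trp53inp1 rose 1.23-fold and 1.24-fold. The other 7 genes, Trp53 included, did not pass the test. The fitted folds of the 10 genes ran from 0.796 to 1.24. With edgeR's quasi-likelihood test and an adjusted p of 0.05, 2 of 10 genes were higher and 1 was lower. Over all genes tested 29.0% were called, 13.5% higher and 15.6% lower, so the 3 calls are a share near the background. The median log2 fold change of the 10 genes was 0.06, against 0.00 over all genes tested. The split of the calls depended on the scaling: it was 3 higher and 0 lower after the length and GC correction, and 2 higher and 0 lower with libraries scaled by their totals. Over all 15798 genes tested, these settings called 1935 higher and 1948 lower, and 2630 higher and 2129 lower. The corrected counts of gene lists below have the former as their background. The 3 calls of the main fit rested on KO libraries 2 and 3. For KO library 1 alone against WT edgeR called 0 of 10 genes, with 0 at an unadjusted p under 0.05; that setting called 781 genes in all.

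Trp53 encodes the transcription factor itself and lies on the plus strand of chromosome 11 from 69580359 to 69591873 (mm10). It stood at 198.9, 193.4, 182.2 and 184.5 CPM in WT libraries 1 to 4 and at 200.9, 212.7 and 211.0 CPM in KO libraries 1 to 3. All 3 KO libraries were above all 4 WT libraries, KO library 1 by a narrow margin. The fold change was 1.10, with a 95% interval of 0.972 to 1.24, and did not pass (log2 0.13, SE 0.0834, edgeR adjusted p = 0.244). Trp53 was called in 0 of 21 alternative settings (adjusted p of 0.0532 to 0.687). Of the 10 genes it was the only one whose groups did not overlap, whereas 34.2% of all genes tested had groups without overlap, 16.4% with KO above and 17.7% with KO below. A processed pseudogene copy, Trp53-ps (chr17:54419680-54420841), was added after the data were seen. It had 21, 39, 51 and 49 counts in WT and 47, 90 and 228 in KO. Its WT level was 0.883 ± 0.276 CPM (SD, n = 4) and its KO level 2.71 ± 2.02 (SD, n = 3), and it rose (log2 fold change 1.61, SE 0.449, edgeR adjusted p = 0.0229). Leaving out WT library 1, 2 or 3, or KO library 3, ended that call (0.0504 to 0.139), and the log2 change without KO library 3 was 0.82. The rule for reads shared by near-identical copies is not given in the sources used here. Wrap53, which starts 104 bases away on the opposite strand, was at 12.8 CPM in both groups (edgeR adjusted p = 0.984).

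Mdm2, the ubiquitin ligase that restrains p53, maps to chromosome 10, minus strand, positions 117688875 to 117710758. It stood at 131.8, 125.0, 141.4 and 149.2 CPM in WT libraries 1 to 4 and at 128.8, 106.2 and 91.7 CPM in KO libraries 1 to 3. KO libraries 2 and 3 were below every WT library, and KO library 1 was inside the WT range. The WT mean was 136.9 ± 10.7 CPM (SD, n = 4) and the KO mean 108.9 ± 18.7 CPM (SD, n = 3). Mdm2 fell, with a log2 fold change of -0.33 (SE 0.109) and an edgeR adjusted p of 0.0316. The corrected value was -0.24 (edgeR adjusted p = 0.0573). For KO library 1 alone the log2 change was -0.09 (edgeR adjusted p = 0.693), and without that library it was -0.45 (5.60e-04). Leaving out WT library 1, 3 or 4, or KO library 2 or 3, ended the call (adjusted p of 0.0606 to 0.203).

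Ccng1 encodes cyclin G1, an atypical cyclin that recruits the phosphatase PP2A to MDM2, and maps to chromosome 11, minus strand, positions 40748552 to 40755311. It stood at 76.6, 69.6, 81.2 and 76.1 CPM in WT and at 76.8, 112.1 and 92.2 CPM in KO libraries 1 to 3. KO library 2 was the highest, KO library 3 was also above all WT libraries, and KO library 1 was inside the WT range. Ccng1 rose by a log2 value of 0.30 (SE 0.111; edgeR adjusted p = 0.0475); after correction the value was 0.24 (0.0303). It was 0.01 (edgeR adjusted p = 0.961) for KO library 1 alone and 0.45 (5.18e-04) without it. The call was lost without any of the 4 WT libraries and without KO library 2 or 3 (0.0669 to 0.273).

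Trp53inp1, a nuclear and autophagy-linked protein that promotes p53-dependent apoptosis, lies on the plus strand of chromosome 4 from 11156431 to 11174379. Its levels were 104.5, 94.9, 110.1 and 102.3 CPM in WT and 107.7, 143.2 and 131.2 CPM in KO libraries 1 to 3. The pattern was that of Ccng1, with KO libraries 2 and 3 above and KO library 1 inside the WT range. The gene rose by a log2 value of 0.31 (SE 0.100; edgeR adjusted p = 0.0297). The corrected value was 0.41 (0.00222). It was 0.06 (0.788) for KO library 1 alone and 0.43 (2.47e-04) without it. Leaving out WT library 1, 2 or 4, or KO library 2 or 3, ended it (adjusted p of 0.0547 to 0.127). Among the 10 genes, Trp53inp1 passed in the most alternatives, 12 of 21, against 9 each for Mdm2 and Ccng1.

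**Figure D2:**
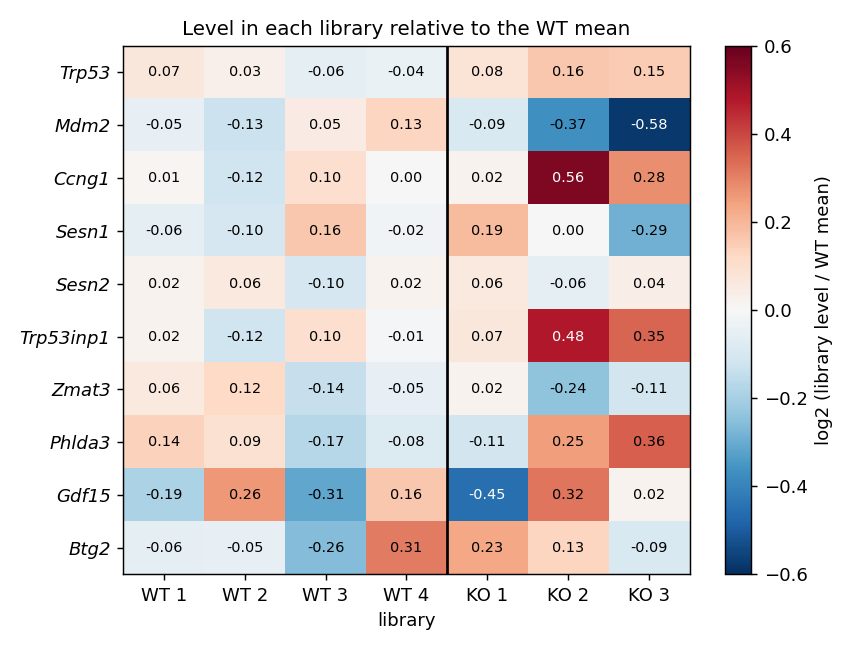
Log2 ratio of each library's level to the WT mean for the 10 genes (rows) in WT libraries 1 to 4 and KO libraries 1 to 3 (columns); red is above and blue below the WT mean. In KO library 2, Ccng1 is at 0.56 and Trp53inp1 at 0.48, and in KO library 3 Mdm2 is at -0.58, whereas KO library 1 has these 3 genes at 0.02, 0.07 and -0.09.

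Phlda3 encodes a PH-domain protein that competes with AKT for membrane lipids and so restrains it. It stood at 15.4, 14.8, 12.4 and 13.1 CPM in WT and at 12.9, 16.6 and 17.9 CPM in KO libraries 1 to 3. KO libraries 2 and 3 were above the WT libraries and KO library 1 was among them. The fold change was 1.13, with a 95% interval of 0.944 to 1.36 (edgeR adjusted p = 0.299). Phlda3 passed without KO library 1 (log2 fold change 0.32, edgeR adjusted p = 0.0298), while the corrected value over all libraries was -0.05 (0.744).

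The sestrins restrain mTORC1, the kinase complex of cell growth, when amino acids are scarce or cells are stressed. Sesn1 stood at 16.5, 16.1, 19.2 and 17.0 CPM in WT and at 19.7, 17.2 and 14.0 CPM in KO libraries 1 to 3, so the KO libraries lay above, inside and below the WT range. Sesn2 stood at 47.0, 48.0, 43.0 and 46.7 CPM in WT and at 48.1, 44.4 and 47.5 CPM in KO, a complete overlap apart from KO library 1. The 95% intervals of the fold change were 0.827 to 1.18 for Sesn1 (edgeR adjusted p = 0.920) and 0.888 to 1.15 for Sesn2 (0.917). Changes within these intervals are not excluded. The direction of both turned between settings.

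Zmat3, a zinc-finger protein that binds RNA and controls splicing, stood at 140.7, 146.4, 122.2 and 130.2 CPM in WT and at 136.7, 113.9 and 125.0 CPM in KO libraries 1 to 3. KO library 2 was below the WT range and the others were inside it. The log2 fold change was -0.11 (SE 0.0950, edgeR adjusted p = 0.422). Its sign turned with the correction for length and GC, which gave 0.23 (edgeR adjusted p = 0.0432); with length alone it was 0.19 (0.115). Zmat3 has the longest summed exons of the 10 genes, 11435 bases, and genes of its length bin had a median log2 fold change of -0.32, with 2.31% higher and 42.9% lower.

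Btg2 and Gdf15, the highest and the lowest gene of the set, did not differ between the groups beyond their spread. Btg2 stood at 441.2, 446.4, 384.6 and 572.4 CPM in WT and at 540.4, 505.6 and 434.1 CPM in KO libraries 1 to 3, all inside the WT range. Its fold change was 1.07, with a 95% interval of 0.896 to 1.28 (edgeR adjusted p = 0.584). Gdf15 stood at 1.65, 2.25, 1.52 and 2.11 CPM in WT and at 1.38, 2.34 and 1.91 CPM in KO, from 54 to 113 counts per library. Its fold change of 0.999 had the widest interval of the 10 genes, 0.702 to 1.42 (edgeR adjusted p = 0.998), so changes within that interval are not excluded.

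**Figure D3:**
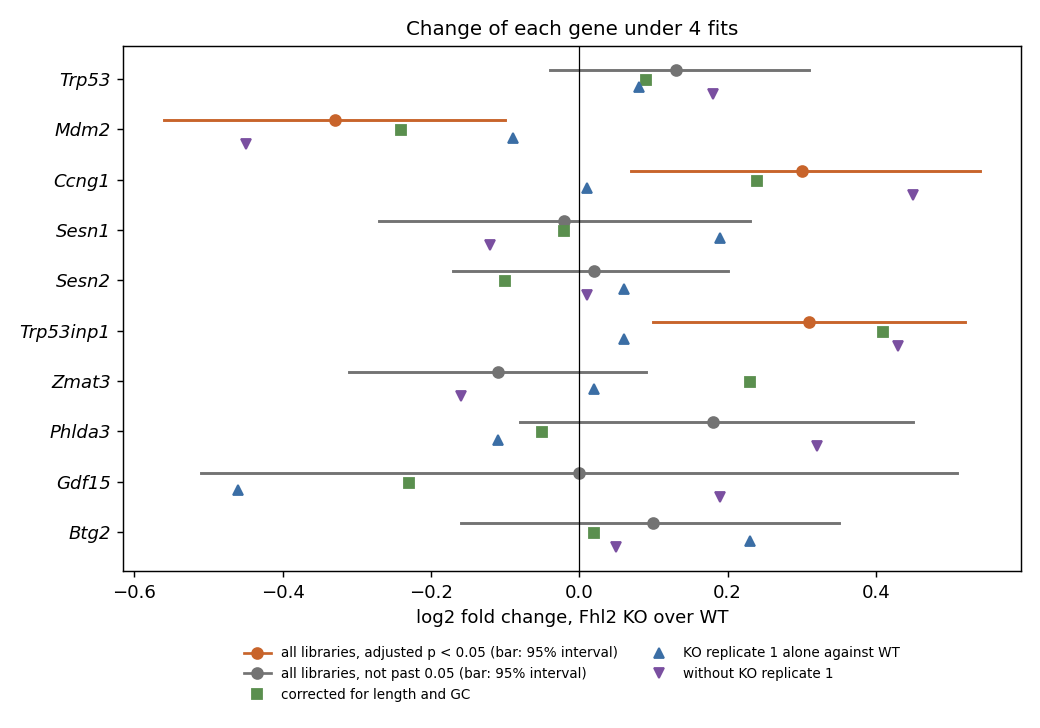
Log2 fold change of Fhl2 KO over WT for each gene: circles with 95% intervals are the fit of all 7 libraries (orange where adjusted p is under 0.05), squares the length and GC correction, upward triangles KO library 1 alone and downward triangles the fit without KO library 1. For Mdm2 the values run from -0.09 for KO library 1 alone to -0.45 without it, and for Ccng1 from 0.01 to 0.45.

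Each of the 10 genes was set beside genes of like length, as a description with no test. Median log2 fold changes over 10 bins of summed exon length fell from 0.26 in the shortest to -0.32 in the longest. Trp53inp1 (0.31) was in a bin with a median of -0.12, Ccng1 (0.30) in 1 with 0.05 and Mdm2 (-0.33) in 1 with -0.07. Among the genes not called, Zmat3 (-0.11) was beside a median of -0.32, Gdf15 (0.00) beside 0.22 and Trp53 (0.13) beside 0.00. Phlda3, at 0.18, was beside 0.22, and Btg2, at 0.10, beside 0.10. Sesn1 (-0.02) and Sesn2 (0.02) were beside 0.05.

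**Figure D4:**
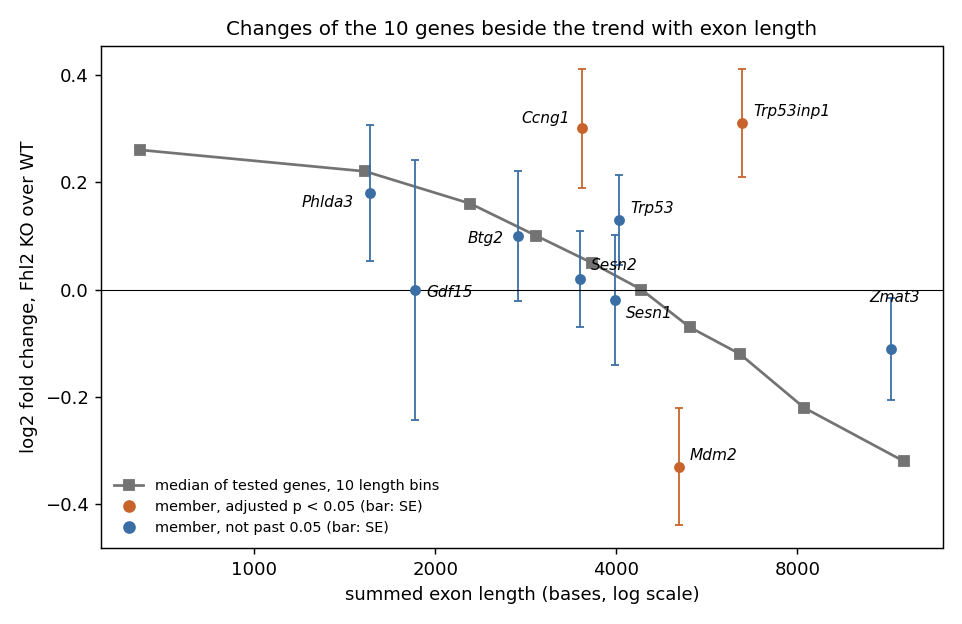
Log2 fold change of the 10 genes (circles, bar: SE, orange where adjusted p is under 0.05) against summed exon length on a log axis, with the median of all tested genes in 10 length bins (grey squares). The medians fall from 0.26 to -0.32. Ccng1, Trp53inp1, Trp53 and Zmat3 lie above the medians of their bins. Mdm2 and Gdf15 lie below, as do Sesn1, Sesn2 and Phlda3 by smaller margins.

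Family relatives of the 10 genes were called in both directions. Of 13 tested relatives, 3 rose, 4 fell and 6 did not pass (median 0.06; corrected 0.11, with 4 higher and 2 lower). These are 23.1% higher and 30.8% lower, beside 13.5% and 15.6% over all genes tested. Phlda1, a relative of Phlda3, rose 1.80-fold (edgeR adjusted p = 3.21e-04), with WT at 59.2 ± 11.6 CPM (SD, n = 4) and KO at 106.4 ± 6.83 CPM (SD, n = 3). Of the antiproliferative BTG and TOB family, Tob2 fell from 14.1 ± 1.43 to 7.56 ± 1.44 CPM (log2 fold change -0.90, edgeR adjusted p = 3.38e-04). In the same family Btg3 (0.31, 0.0273) and Btg1 (0.30, 0.0281) rose and Tob1 (-0.27, 0.0413) fell. The sestrin Sesn3 had 63.6 ± 5.52 CPM in WT against 50.1 ± 3.99 in KO and fell by 0.34 (edgeR adjusted p = 0.0151); its corrected value was 0.07 (0.541). Trp63, a p53 relative, fell by 0.51 (0.0275; corrected -0.26, 0.262), and Trp73 had 0 counts in all 7 libraries. Mdm4, the partner of MDM2 in holding p53 in check, was at 45.0 ± 4.77 CPM in WT and 39.6 ± 5.99 in KO (edgeR adjusted p = 0.233). Others not past the threshold were Ccng2 (log2 fold change 0.20; corrected 0.30, edgeR adjusted p = 0.0123), Zmat5 (0.31), Zmat1 (-0.27), Btg4 (0.66) and Trp53inp2 (0.06). Leaving out 1 library ended the calls of Sesn3 (WT library 3 or 4, KO library 2 or 3; 0.0537 to 0.0696), Btg3 (WT library 1 or 4, KO library 2; 0.0503 to 0.130) and Btg1 (WT library 1, 3 or 4, KO library 2 or 3; 0.0527 to 0.117). It also ended those of Trp63 (every library but KO library 2; 0.0504 to 0.119) and Tob1 (every library but KO libraries 1 and 2; 0.0604 to 0.231).

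Among 44 other known p53 targets, all tested, 13 rose, 4 fell and 27 did not pass, beside 13.5% higher and 15.6% lower over all genes (29.5% and 9.09% of this list). The median was 0.13, and 0.13 after correction with 12 higher and 4 lower. Plk2, a polo-like kinase, rose 1.90-fold (edgeR adjusted p = 1.06e-04), with WT at 55.4 ± 10.3 CPM (SD, n = 4) and KO at 105.5 ± 9.28 CPM (SD, n = 3). Its log2 change was 1.05 in KO library 1 alone (edgeR adjusted p = 0.0206). Bax, the pore-forming effector of apoptosis, rose 1.44-fold (0.00464; corrected 0.31, 0.0175), Tap1, a peptide transporter of antigen presentation, 1.51-fold (0.00219) and the adenylate kinase Ak1 1.35-fold (0.00312). Xpc, the damage sensor of nucleotide excision repair, fell from 84.5 ± 2.97 to 56.7 ± 13.1 CPM (edgeR adjusted p = 0.00333). Cdkn1a, which encodes the cell cycle inhibitor p21 and is named here after its value was seen, rose 1.26-fold from 85.8 ± 8.31 to 108.4 ± 3.50 CPM (0.0133; corrected 0.25, 0.0214). Its call was lost without KO library 3 (0.0645). The count of the list was 6 without KO library 3 and 1 for KO library 1 alone.

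Among genes that regulate p53, more were lower than higher. The 29 tested held 12 that fell, 4 that rose and 13 not past the threshold (median -0.32). These are 41.4% lower and 13.8% higher, beside 15.6% lower and 13.5% higher over all genes. After correction 9 fell and 4 rose (median -0.17), beside 1948 lower and 1935 higher of the 15798 genes tested. The methyltransferases Setd7 (147.6 ± 6.27 to 100.6 ± 15.3 CPM; log2 fold change -0.55, edgeR adjusted p = 0.00127) and Kmt5a (-0.54, 0.00168) fell, as did the ubiquitin ligase Ube4b (-0.47, 0.00238). The acetyltransferase Crebbp fell by 0.57 (0.00461; corrected -0.25, 0.0233), and Usp7, which removes ubiquitin from MDM2 and p53, fell by 0.39 (0.00588; corrected -0.16, 0.0973). The members that rose were the ubiquitin ligase Rchy1 and the ribosomal proteins Rpl5, Rpl11 and Rpl23, which can bind MDM2; they were named after their values were seen. The calls of Rchy1, Rpl5 and Rpl11 were each lost when some single libraries were left out, and the corrected change of Rpl11 was 0.18 (edgeR adjusted p = 0.0823). The list's count was 10 without WT library 4 and 8 without KO library 3. For KO library 1 alone 2 regulators fell and 0 rose, with edgeR.

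**Figure D5:**
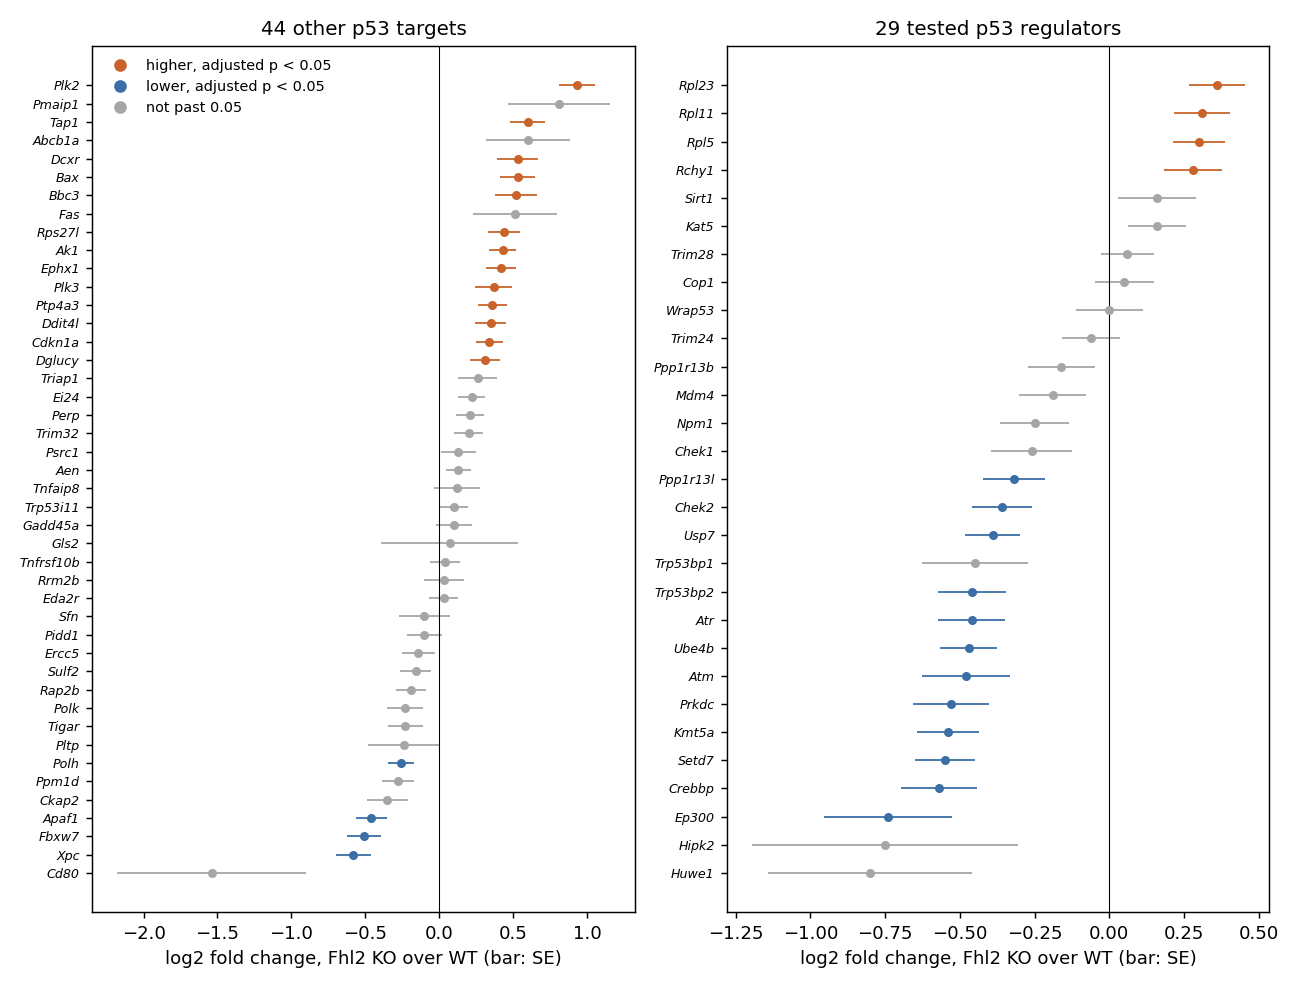
Log2 fold change of Fhl2 KO over WT (circle, bar: SE) for 44 other p53 targets (left) and 29 tested p53 regulators (right), ordered by value; orange is higher and blue lower at adjusted p under 0.05, grey is not past it. On the left 13 genes are orange and 4 blue, on the right 4 and 12.

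Other programmes that share genes with the p53 set were compared, leaving out Sesn2, Gdf15 and Btg2 themselves. Of 21 genes of the ATF4 stress response, 4 rose, 3 fell and 14 did not pass (median -0.04; corrected -0.12, with 3 higher and 6 lower). The shares of 19.0% higher and 14.3% lower are near the 13.5% and 15.6% of all genes tested, so the calls named next are single genes and not a result about the list. The transcription factors Cebpb (log2 fold change 0.62, edgeR adjusted p = 0.00118) and Atf3 (0.60, 0.00547) rose, as did Ppp1r15a (0.32, 0.0145), a phosphatase subunit that ends the response. The lipoprotein receptor Vldlr (-0.55, 0.00226) and the cystine transporter Slc7a11 (-0.53, 0.0167) fell. Corrected values were 0.17 for Ppp1r15a (0.117), whose call was lost without KO library 3 (0.104), and -0.18 for Slc7a11 (0.421), whose call ended when WT library 4 or KO library 2 was left out (0.0579 to 0.0678). Of 21 immediate early genes, which answer to growth signals and to tissue dissociation, 6 rose, 3 fell and 12 did not pass (median 0.22; corrected 0.12, with 4 higher and 3 lower). These are 28.6% higher and 14.3% lower, against the same 13.5% and 15.6%. Klf2 (0.95, 5.36e-05), Jund (0.57, 0.00369) and Junb (0.64, 0.00373) rose, all transcription factors. For KO library 1 alone their log2 changes were 0.69, 0.15 and 0.23. The 3 that fell, named after their values were seen, were Ier5 (-0.40, 0.0103), Fos (-0.35, 0.0241) and Hspa1b (-0.48, 0.0492). Atf3 is counted both here and in the ATF4 list.

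Genes of G2 and mitosis are known to be lowered when p53 acts through p21. Of 20 tested, 14 fell and 0 rose with edgeR, with 15 and 0 at an unadjusted p under 0.05 and 14 and 0 with DESeq2 (median -0.46, corrected -0.46). The edgeR calls are 70.0% of the list, beside 15.6% lower over all genes tested. The topoisomerase Top2a fell by 0.76 (edgeR adjusted p = 7.54e-05), the kinesin Kif23 by 0.69 (1.30e-04) and the spindle factor Tpx2 by 0.78 (1.64e-04) on the log2 scale. The other 6, Ccnb1, Cdk1, Cdc20, Cdc25c, Birc5 and E2f1, did not pass (edgeR adjusted p of 0.0822 to 0.712), and Cdc25c was at 0.08. In KO library 1 alone the list's median was -0.30, against 0.00 over all genes, with values of -0.68 for Top2a, -0.68 for Kif23 and -0.49 for Tpx2. Growth state and p53 activity cannot be told apart from these counts.

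The genes whose pattern was most like that of Trp53 over the 7 libraries, by Pearson r of log2 CPM among 11717 genes of at least 1 CPM, were Fiz1 (0.992), Znhit2 (0.991) and Grina (0.990). For Mdm2 they were Elf2 (0.996), Elac1 (0.994) and Mxi1 (0.993). These values pool libraries of both genotypes, share the length dependence given above, and are a description of 7 points.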

How the data were processed

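The labels' protocols give TRIzol extraction and a stranded mRNA kit. Tools named in the submitters' processing notes, with no role, are featureCounts 1.6.4, HISAT2 2.2.1, DESeq2 1.28.1, Cufflinks 2.2.1, fastp and SAMtools, and the build is mm10. The sources used here give neither annotation release, strand setting nor the rule for shared reads. The deposited values are raw counts per gene symbol, not normalized by the authors. No member shared exon bases with another gene of GENCODE M21.

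The test was edgeR 4.0.16 under R 4.3.3: TMM, a filterByExpr minimum of 10 counts, and glmQLFTest on a robust glmQLFit of genotype alone. Benjamini-Hochberg adjustment ran over all 15798 genes, and those not tested held 0.0511% of counts. Standard errors (SE, log2 scale) came from the F statistic, and 95% intervals from the t distribution with the fit's degrees of freedom. The correction for length and GC used each library's spline trend (4 degrees of freedom, genes of at least 1 CPM) as an offset, with a value for 15574 genes. No libraries were duplicates (chi-square per degree of freedom at least 9.72). Only the main fit was tested on simulated counts, which had no trend with length and held changes larger than those of the members.

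Promoter sequences came from RefSeq; a wider scan for p53 elements was not made here. Fhl2 and genes next to a member were also named, and Trp53-ps was added after the data were seen. Members and gene lists were chosen with earlier results of these data known. Named were all members and tested relatives, up to 5 called genes of the target, regulator and ATF4 lists and up to 3 of the immediate early and mitosis lists, by smallest p. Alternatives were DESeq2 1.42.0, limma 3.58.1 voom with quality weights, other scalings and filters, a replicate block, the same 6 libraries without it, 1 surrogate variable (sva 3.50.0), no robust estimation, removal of predicted, ribosomal protein and mitochondrial genes, the length corrections, and leaving out libraries.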

Additional observations from a re-analysis of the deposited data

How the results depend on the processing

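Which members were called varied between settings, also where their count did not. With the length and GC correction Mdm2 was not called (edgeR adjusted p = 0.0573) and Zmat3 was called as higher (0.0432). Mdm2 was also not called with library totals (0.0513), nor Ccng1 without robust estimation (0.0587). The count of 3 called members of the p53 set was within 1.5 times in 9 settings that kept all 7 libraries. It was 0 with the replicate number as a block, 0 for the same 6 libraries without the block, 0 with 1 surrogate variable, 1 with the length correction alone and 0 for KO library 1 alone, and 0 to 4 when 1 library was left out. At an unadjusted p under 0.05 edgeR gave 3, 3, 1, 4 and 0 members in these 5 settings. Deviations of same-numbered libraries from their group means correlated at 0.03, 0.00 and -0.03. Those of other pairs of a WT and a KO library correlated at -0.08 to 0.10. All genes called with the block numbered 3301, against 2960 without it on the same 6 libraries. These values cannot decide whether replicate numbers mark a shared litter or day, which the labels do not state. Over all genes the count was 781 for KO library 1 alone and 1657 to 6740 when 1 library was left out. Other p53 targets numbered 1 for KO library 1 alone and 6 to 23 with 1 library left out. Regulators numbered 10 for the same 6 libraries, 10 with the length correction, 2 for KO library 1 alone and 8 to 20 with 1 library left out.

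Of 980 comparisons of 47 named genes with an alternative, 829 kept direction and side of the threshold, 113 were no longer past it, 5 became so and 33 turned in direction, 1 of these past the threshold. For Sesn1 the turned values were 0.02 with library totals, 0.01 without mitochondrial, ribosomal protein and predicted genes, 0.04 with a surrogate variable, 0.04 without WT library 3, 0.10 without KO library 3 (range with 1 library left out -0.12 to 0.10) and 0.19 for KO library 1 alone. For Sesn2 they were -0.10 and -0.04 with the length and GC and the length correction and -0.02 without WT library 3. In these corrections and for KO library 1 alone, in that order, Zmat3 was at 0.23, 0.19 and 0.02, Phlda3 at -0.05, -0.03 and -0.11, and Mdm4 at 0.20, 0.18 and 0.02. Sesn3 was at 0.07 and 0.04 in the corrections, and Btg4 at -0.04 without KO library 1 (range -0.04 to 0.95). Gdf15 was at 0.01 with DESeq2 and RLE factors, 0.04 with voom and with library totals, 0.05 with the block, 0.06 for the same 6 libraries, 0.03 without mitochondrial, ribosomal protein and predicted genes, and 0.11, 0.06 and 0.19 without WT library 2, WT library 4 and KO library 1 (range -0.18 to 0.19); it was not tested under the filter of 10 CPM. Btg2 was at -0.02 with voom and -0.01 with the length correction. Only for Zmat3 with the length and GC correction was a turned value past the threshold; beyond the construction of each setting, the cause was not tested.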
